A study of Mus musculus with 133 samples.

Results

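Gene expression at 52 h after partial hepatectomy (PH) was compared with that at 52 h after sham surgery in hepatocytes of old male mice (OM, 60 weeks). The members were the 6 OM libraries of these groups (3 PH and 3 sham) of the 133 libraries in the series, chosen by their labels, and all 11047 genes that passed a low-count filter were examined. A further 2 OM libraries at 52 h, 1 of each group, carried an X in their titles and were left out of the main comparison. In the wider study, 3'UTR-seq by CEL-seq2 was used to follow how the age of the mouse bears on liver regeneration, in young (YM, 11 to 14 weeks), old and very old (VOM, 100 weeks) males and in females. All groups used here were wild-type C57BL/6 mice. PH mice lost the larger part of the liver under inhalation anaesthesia, sham mice had a midline abdominal incision that was closed by suture, and hepatocytes were freed by collagenase perfusion. The paper states that 3 mice were analyzed at each time after PH; no source used here states that the sham libraries came from separate mice, and p-values measure the spread between libraries.

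After PH, hepatocytes that rest in G0 re-enter the cell cycle with little or no contribution from a stem cell. Growth factors and cytokines prime the cells, and cyclin D1 carries them through G1. E2F factors switch on the enzymes of DNA synthesis in S phase, and the B-MYB–FOXM1 complexes then switch on the genes of G2 and mitosis. Meanwhile the remaining liver has to keep up its work in metabolism, detoxification and the making of plasma proteins.

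Deposited counts summed to between 1011701 and 3432125 per PH library and between 1049594 and 2230662 per sham library. The PH libraries came from mixes 16, 17 and 23 and the sham libraries from mixes 20, 17 and 23, where the mix is a number in the library titles whose meaning is not given in the sources used here, so that 2 mixes held both groups. The hepatocyte markers summed to 35490 to 44380 CPM (the count relative to the library's total, after TMM adjustment) after PH and 40640 to 54140 CPM after sham surgery. Some markers of other cells were present. Markers of sinusoidal endothelial cells summed to 403 to 481 CPM after PH and 440.1 to 474 CPM after sham surgery, and Kupffer cell markers to 510.2 to 729.8 CPM and 611 to 654 CPM. Erythroid markers summed to 53.9 to 68.1 CPM and 92.7 to 97.8 CPM, and the 3 tested neutrophil and monocyte markers to at most 3.21 CPM. Of the cholangiocyte list, Krt7, Krt19 and Epcam were not in the table. In a bulk library, fewer cells of a type and less RNA per cell cannot be told apart. The 3 VOM sham libraries, whose place in the fit touches the OM values through the low-count filter, the TMM factors and the shared estimate of spread, stood apart: 55.8 to 59.3% of their counts lay in 155 genes whose count exceeded the largest value the UMI correction can give in at least 1 library, against 2.81 to 10.5% in the other 21 libraries of the fit.

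To be called a differentially expressed gene (DEG), a gene had to change by at least 2-fold and to have an adjusted p under 0.1 (Benjamini-Hochberg) in the quasi-likelihood test of edgeR. By this rule 706 genes were higher after PH (6.39% of all genes tested) and 481 were lower (4.35%), 10.7% in all. The ranges of the 3 PH and the 3 sham libraries did not overlap for 4565 genes (41.3%). Among the 706 higher genes, 681 were also higher within mix 17 (its X-marked libraries included) and 704 within mix 23, and of the 481 lower genes 469 and 480 were also lower there. Apart from the X-marked ones, these libraries were part of the fit that called the genes. This agreement was therefore largely built in and is no independent support. With the mix as a covariate, 508 genes were higher and 337 lower, of which 445 and 292 were among the calls above. In that fit mix 16 held only PH library 1 and mix 20 only sham library 1. The OM contrast then rested on libraries 2 and 3 of each group, so a call could also be lost through the smaller number of libraries.

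**Figure D1:**
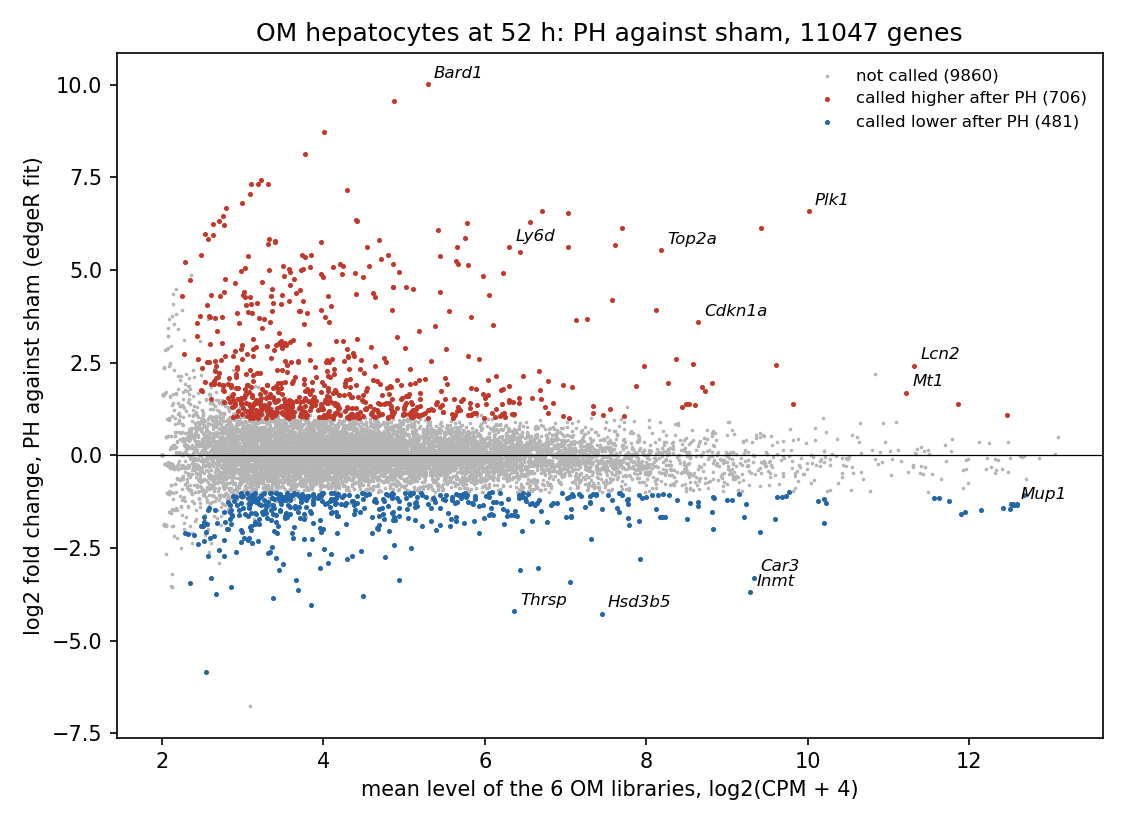
Log2 fold change of PH against sham surgery (edgeR fit, vertical axis) plotted against the mean level of the 6 OM libraries as log2(CPM + 4) (horizontal axis), with 1 point per gene. The 706 called higher genes (red) reach larger changes than the 481 called lower genes (blue); for genes at 0 in every sham library, such as Bard1, the fitted change depends on the prior count.

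Among the gene lists, G2 and mitosis and S phase held the largest shares of higher genes and the male-biased genes of the liver the largest share of lower genes. G2 and mitosis genes were higher in 62 of 63 tested members (98.4%), S phase genes in 32 of 44 (72.7%), and male-biased genes were lower in 24 of 36 (66.7%). The median log2 fold change over all tested genes was 0.03.

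**Figure D2:**
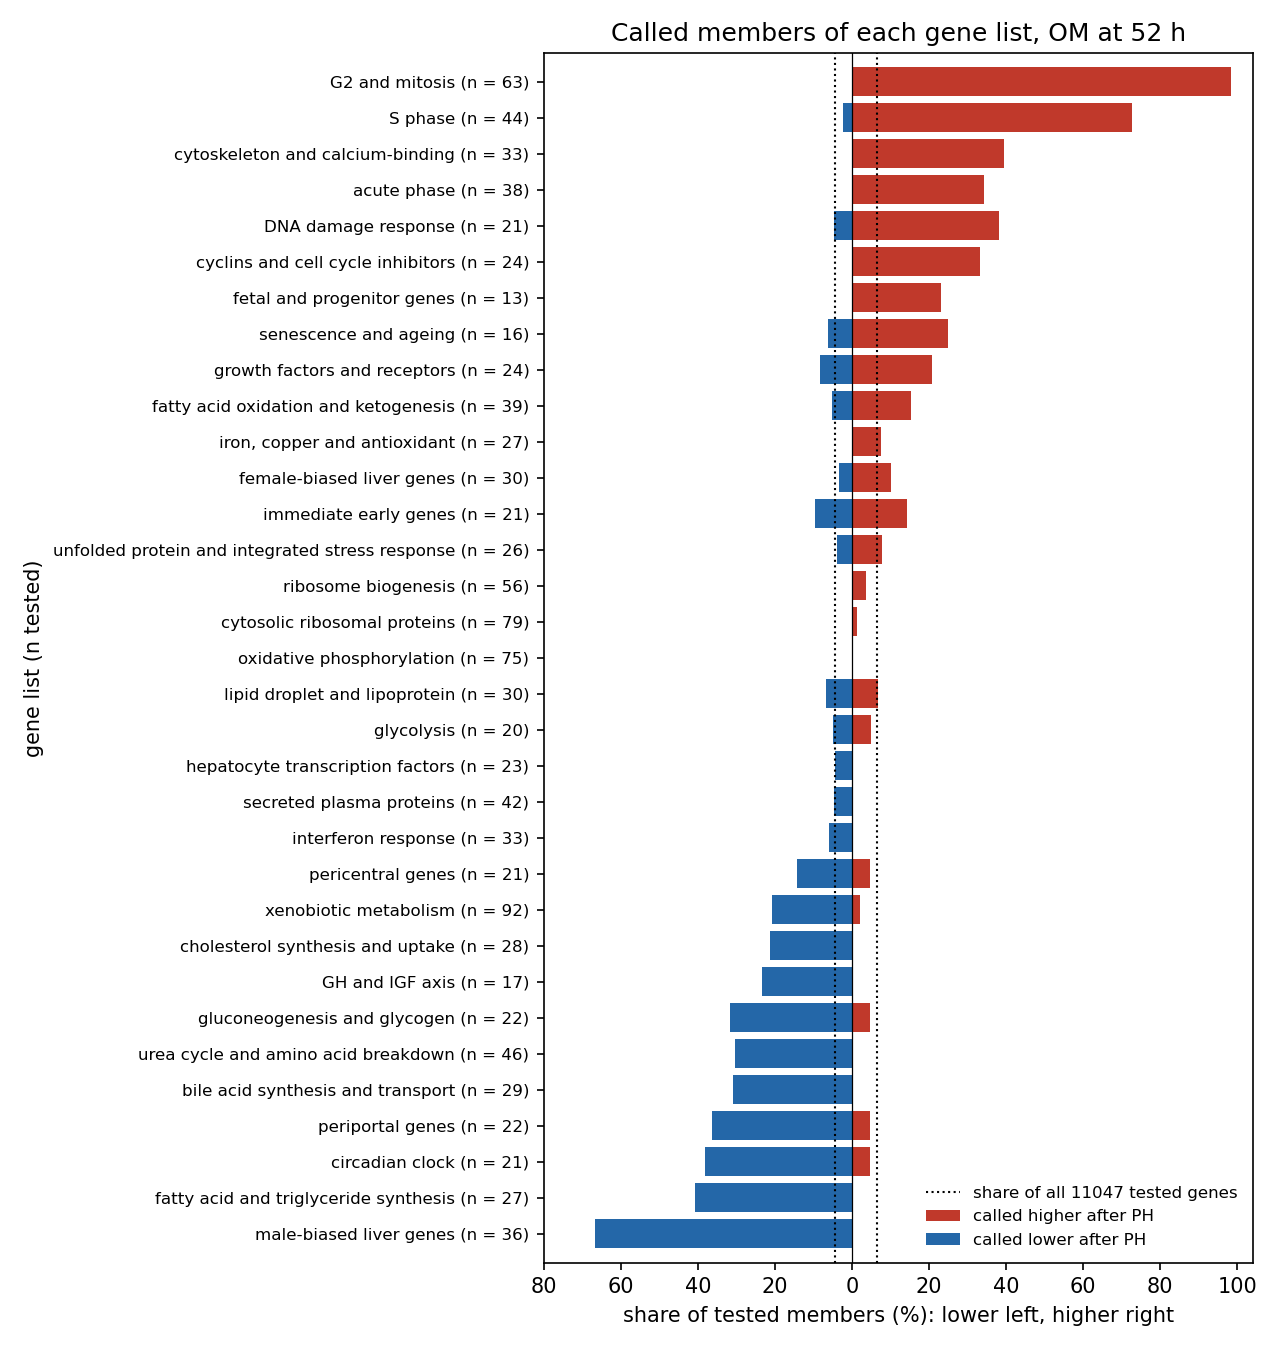
Share of the tested members of each gene list called higher (red, to the right) or lower (blue, to the left) after PH in OM at 52 h, with the number tested beside the list's name; the dotted lines mark the shares over all 11047 genes, 6.39% higher and 4.35% lower. The bars of G2 and mitosis (98.4% higher) and of male-biased genes (66.7% lower) are the longest in their directions.

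Genes of G2 and mitosis carried the strongest response, with a median log2 fold change of 4.89 over the 63 tested of 67 listed genes (4.80 with genes at 0 in the sham libraries set to their lower bound). Cdk1, the kinase that drives entry into mitosis (chr10:69335146-69352938 of GRCm38), was at 382, 351 and 398 CPM in the PH libraries and at 8.08, 6.93 and 6.65 CPM in the sham libraries. Its level was thus far higher in every PH library than in any sham library, by 51.4-fold (log2 fold change 5.68, SE 0.43, adjusted p = 9.74e-09). Top2a, which untangles sister chromatids (chr11:98992943-99024189), stood at 583, 536 and 564 CPM after PH and at 10.8, 13 and 12.8 CPM after sham surgery, a change of 46.2-fold. Mki67, whose product coats mitotic chromosomes and is a standard marker of cycling cells, was at 119, 162 and 205 CPM after PH and at 5.38, 0 and 3.80 CPM after sham surgery (44.9-fold). The groups of neither gene overlapped.

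The mitotic cyclins and their regulators moved the same way. Ccnb1, the cyclin B that activates Cdk1, was at 24.2, 54.0 and 51.8 CPM after PH and at 1.80, 0.866 and 0.475 CPM after sham surgery (log2 fold change 5.29, SE 0.54, and 6.05 without sham library 1). Ccna2, the cyclin of S phase and G2, was at 27.8, 31.7 and 48.1 CPM against 1.80, 0 and 1.43 CPM. Foxm1, the transcription factor that drives mitotic genes, was at 23.3, 31.7 and 14.6 CPM against 0.897, 0.866 and 0.475 CPM. Every PH library held more than every sham library for all 3 genes. Cdc20, which turns on the anaphase-promoting complex at the end of mitosis, rose from 6 counts over the 3 sham libraries to 258 over the 3 PH libraries. All 6 sham counts of Cdc20 came from sham library 1, without which its log2 fold change went from 4.91 to 8.98, and without sham library 3 it was 4.26.

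Of the 12 higher genes with the largest fold changes, 5 belong to the G2 and mitosis list. Plk1, the polo-like kinase of mitotic entry and spindle assembly (chr7:122159439-122169873), stood at 1739, 2303 and 2071 CPM after PH and at 30.1, 0 and 27.5 CPM after sham surgery (log2 fold change 6.59, SE 1.27, adjusted p = 0.000783). Sham library 2 listed it at 0 while the other two sham libraries lay close together. Aurka, the Aurora A kinase of centrosomes, was at 182, 184 and 229 CPM against 3.14, 3.47 and 0 CPM, with log2 fold changes of 6.58 over all libraries, 7.25 without sham library 1 and 5.91 without sham library 3. Prc1, which bundles the microtubules of the central spindle, was at 212, 247 and 297 CPM against 6.73, 0 and 0 CPM. The log2 fold change of Prc1 was 6.52, and it was 11.84 without sham library 1, which held all of its sham counts, and 5.86 without sham library 3. Pbk, a mitotic kinase, had 315 counts in the PH libraries and 1 in the sham libraries, a ratio of library-size-adjusted counts of 252 with a 95% counting interval of 44.8 to 9966. Most PH counts of Pbk lay in PH library 3, without which its log2 fold change went from 7.17 to 5.57.

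The remaining 8 genes were at 0 in all 3 sham libraries, so that their change is given as a lower bound against 3 counts per library. Bard1, the partner of the Brca1 repair protein, was at 70.9, 69.3 and 71.0 CPM after PH, at least 39.3-fold higher. Iqgap3, a scaffold protein of proliferating cells, was at 40.4, 58.7 and 53.3 CPM, at least 28.4-fold higher. Hmmr, which binds spindle microtubules, was at 4.49, 13.5 and 54.5 CPM, at least 13.5-fold higher. These libraries differed widely for Hmmr, and the same holds for Gtse1, which was at 2.69, 1.76 and 23.2 CPM (at least 5.15-fold). For Gtse1, PH libraries 1 and 2 lay near the floor of 3 counts per sham library (1.79 CPM on average). Its bound therefore rested on PH library 3. The histone gene Hist1h2ah was at least 10.9-fold higher, the centromere gene Cenpi at least 6.04-fold, the kinetochore gene Ska3 at least 5.77-fold and BC030867 at least 6.63-fold. Without PH library 3 the fitted log2 fold changes, which depend on the prior count, went from 8.72 to 7.08 for Hmmr, from 7.33 to 4.96 for Gtse1, from 7.43 to 6.53 for Cenpi and from 7.32 to 6.70 for Ska3. Histone genes of this cluster resemble each other closely, so that the reads of Hist1h2ah could be shared with its copies.

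Pttg1, the securin that holds back chromosome separation, was the only tested member of the G2 and mitosis list that was not called. It was at 96.9, 107 and 98.1 CPM after PH and at 114, 99.6 and 120 CPM after sham surgery (log2 fold change -0.15, adjusted p = 0.524), and the groups overlapped. Leaving out each of the 6 libraries in turn gave 56 to 62 higher members, with the 56 reached without PH library 3.

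The promoters of these genes are shown because G2 and mitosis genes are known to carry a cell cycle homology region (CHR, TTTGAA) together with CCAAT boxes. In RefSeq promoters of GRCm38.p6, taken from 250 bases before to 50 after each start, the CHR letters occurred on either strand in 41 of 58 promoters of the G2 and mitosis list (70.7%, 55 of 67 genes matched), in 7 of 49 of the S phase list (14.3%) and in 5878 of all 32851 promoters (17.9%). A CHR and a CCAAT together occurred in 62.1% of the G2 and mitosis promoters and in 6.95% of all promoters. A match is a description of the sequence and no evidence of binding. The 30 bases around the CHR follow for 4 genes whose values are given above, 5′ to 3′ on the gene's strand, with the CHR in capitals; in Top2a the match lies on the opposite strand and reads TTCAAA.
Cdk1 (chr10:69352910-69352939, minus strand): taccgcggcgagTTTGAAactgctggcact
Top2a (chr11:99024195-99024224, minus strand): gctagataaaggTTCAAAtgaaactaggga
Mki67 (chr7:135716460-135716489, minus strand): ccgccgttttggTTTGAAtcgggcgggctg
Cdc20 (chr4:118437344-118437373, minus strand): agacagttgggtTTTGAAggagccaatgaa

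S phase genes rose in 32 of 44 tested of 51 listed members, with a median log2 fold change of 1.79, and leaving out each library in turn gave 31 to 33. Subunits of the Mcm helicase, which unwinds DNA at replication forks, were among them. Mcm2 was at 18.9, 23.5 and 26.1 CPM after PH and at 4.49, 2.60 and 3.80 CPM after sham surgery (6.10-fold, adjusted p = 1.40e-06). Mcm5 was at 23.3, 41.7 and 27.9 CPM against 2.69, 4.33 and 3.80 CPM (8.79-fold), and Mcm6 at 80.8, 44.6 and 51.0 CPM against 3.59, 6.93 and 6.65 CPM (10.2-fold). Mcm3 was at 17.1, 19.4 and 15.5 CPM against 1.35, 0 and 1.43 CPM. In none of these 4 genes did the groups overlap.

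Enzymes and loading factors of DNA synthesis rose with the helicase. Rrm2, the regulated subunit of the ribonucleotide reductase that makes deoxynucleotides, was at 197, 307 and 252 CPM after PH and at 25.1, 15.6 and 18.5 CPM after sham surgery, a rise of 12.4-fold (SE 0.33 on the log2 scale). Asf1b, a histone chaperone of replicating chromatin, was at 71.8, 115 and 116 CPM against 4.49, 0 and 2.85 CPM. Pcna, the sliding clamp of the polymerases, changed less, from 37.7, 36.4 and 42.7 CPM to 92.4, 119.8 and 93.5 CPM (2.60-fold). The transcription factor E2f1 was 2.93-fold higher. Levels of Asf1b, Pcna and E2f1 did not overlap between the groups, and without sham library 1 the log2 fold change of Asf1b went from 5.12 to 5.77.

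A single member of the S phase list was lower. Mcm10, which helps to assemble and activate the replication fork, was at 22.4, 27 and 18 CPM after PH and at 53.4, 67.6 and 87.4 CPM after sham surgery (log2 fold change -1.67, SE 0.27, adjusted p = 0.000115). Its groups did not overlap, and it stayed lower without each of the 6 libraries in turn.

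The E2F core (TTCCCGC or TTGGCGC on either strand), the letters that E2F factors are known to bind, occurred in 24 of 49 promoters of the S phase list (49.0%, 41 of 51 genes matched), in 13.8% of the G2 and mitosis promoters and in 6.81% of all promoters. It is printed in capitals for 4 S phase genes, to set beside the CHR sequences above. In Mcm3 and Mcm5 the match is on the opposite strand. Rrm1, the other subunit of ribonucleotide reductase, was at 17.1, 24.7 and 24.9 CPM after PH and at 3.59, 0 and 6.65 CPM after sham surgery, with log2 fold changes of 2.52 and, without sham library 3, of 3.27.
Mcm3 (chr1:20820275-20820304, minus strand): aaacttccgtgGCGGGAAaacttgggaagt
Mcm5 (chr8:75109349-75109378, plus strand): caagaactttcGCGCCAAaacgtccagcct
Mcm6 (chr1:128359733-128359762, minus strand): attggacgggtTTGGCGCgaagtagctcag
Rrm1 (chr7:102441617-102441646, plus strand): aggagaactcgTTCCCGCcaggtccgcttt

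**Figure D3:**
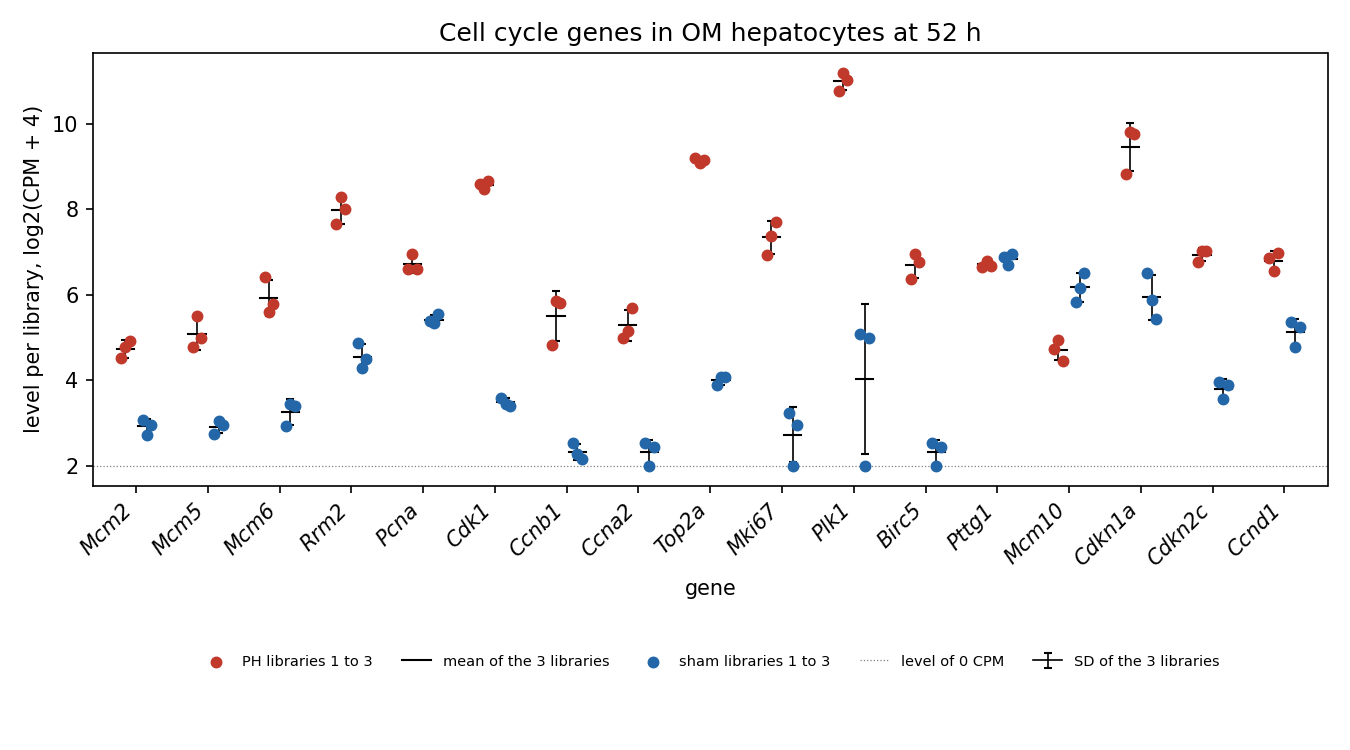
Level of each gene as log2(CPM + 4) (vertical axis) in the 3 PH libraries (red) and the 3 sham libraries (blue) of OM at 52 h, with the mean and SD of each group in black. PH points lie above sham points for each gene but Mcm10, where they lie below, and Pttg1, where they overlap.

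Cyclins, Cdk inhibitors and E2F factors were higher in 8 of 24 tested members (33.3%), with some inhibitors among the largest changes. The inhibitors Cdkn1b and Cdkn1c were not called, and neither were Trp53, the gene of p53, and Mdm2. Cdkn1a, the p21 inhibitor that p53 induces, was at 446, 888 and 866 CPM after PH and at 86.6, 54.6 and 39.4 CPM after sham surgery (12.1-fold, log2 fold change 3.60, SE 0.41, adjusted p = 1.48e-06). Cdkn2c, the p18 inhibitor of Cdk4 and Cdk6, was at 105, 127 and 126 CPM against 11.7, 7.80 and 10.9 CPM (11.4-fold). The groups were far apart in both. Cdkn2d, the p19 inhibitor, was 3.62-fold higher. The p107 pocket protein Rbl1 was 11.6-fold higher and the S phase factor E2f2 6.42-fold.

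Ccnd1, the G1 cyclin that growth factors induce, was at 111, 90.4 and 123 CPM after PH and at 37.2, 23.4 and 33.7 CPM after sham surgery, a rise of 3.37-fold without overlap. Leaving out 1 library at a time gave 7 to 9 higher members of this list, and the mix as a covariate gave 6.

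Genes of the DNA damage response were higher in 8 of 21 tested members (38.1%, against 6.39% of all genes) and lower in 1 (4.76%, against 4.35%). However, without PH library 3, or with the mix as a covariate, 3 were higher, and DESeq2 called 5 higher. Topbp1, which activates the Atr kinase at stalled forks, was at 41.3, 38.2 and 31.8 CPM after PH and at 9.42, 10.4 and 10.9 CPM after sham surgery (log2 fold change 1.82, SE 0.17, adjusted p = 1.35e-07). H2afx, the histone variant that marks double-strand breaks once phosphorylated, rose from 8.08, 5.20 and 9.97 CPM to 32.3, 35.2 and 32.6 CPM. Both were called without each library in turn, and neither had overlapping groups.

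Among early response genes, 3 of 21 tested members were higher (14.3%, against 6.39% of all genes) and 2 lower (9.52%, against 4.35%). Ier3, a stress-induced survival gene, was 4.23-fold higher, at 53.9, 52.3 and 92.5 CPM against 11.7, 18.2 and 19.5 CPM, and the zinc finger factor Klf6 was 2.85-fold higher. Klf10, a factor induced by TGF-beta, was lower at 5.39, 4.70 and 3.95 CPM against 21.5, 18.2 and 16.6 CPM. Dusp1, a phosphatase that switches off MAP kinases, was also lower, at 12.6, 8.81 and 20 CPM against 72.7, 28.6 and 45.1 CPM. The groups of these 4 genes did not overlap.

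Growth factors and their receptors were called in 7 of 24 tested members, 5 higher (20.8%, against 6.39% of all genes) and 2 lower (8.33%, against 4.35%). Without PH library 3 the higher genes numbered 3. Tnfrsf12a, the receptor of the cytokine TWEAK, was at 9.87, 10.6 and 10.9 CPM after PH and at 1.35, 3.47 and 0.950 CPM after sham surgery (6.14-fold). Osmr, the receptor of oncostatin M, was 3.76-fold and Inhbb, a subunit of the activins, 3.54-fold higher. With the mix as a covariate, neither Osmr nor Inhbb kept its call. Vegfa, the growth factor of blood vessels, was lower in every PH library, at 35.0, 24.1 and 35.5 CPM against 67.8, 92.7 and 87.4 CPM (log2 fold change -1.36, SE 0.23). Hgf, the ligand of Met, was called at an adjusted p of 0.0894 on 21 counts against 4, and the call was lost without any 1 of the 6 libraries.

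Acute phase genes were higher in 13 of 38 members (34.2%), with a median log2 fold change of 0.59. Lcn2, the siderophore-binding lipocalin, was at 4611, 2889 and 5425 CPM after PH and at 750.2, 1158 and 516 CPM after sham surgery (5.34-fold, adjusted p = 0.00149). Mt2, a metal-binding metallothionein, was at 1764, 570.1 and 1586 CPM against 232, 374 and 119 CPM (5.44-fold), and Mt1 at 4253, 2137 and 4513 CPM against 999, 1449 and 938 CPM. PH library 2 was the lowest PH library for Lcn2, Mt2 and Mt1 and still lay above all sham libraries. Apcs, serum amyloid P, was 3.66-fold higher.

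Serpina3n, an antiprotease, was at 1237, 1323 and 1328 CPM after PH and at 575, 459 and 458 CPM after sham surgery. Other acute phase genes changed less firmly. Saa1, the main serum amyloid A, was at 9910, 5386 and 7723 CPM against 3159, 3677 and 4030 CPM (adjusted p = 0.0858), and its call held only without PH library 2; the closely related Saa2 (adjusted p = 0.0694) behaved in the same way. Orm1, an orosomucoid, was at 3251, 1898 and 3340 CPM against 1565, 1585 and 1437 CPM, which was under 2-fold. Haptoglobin (Hp) was at 4602, 3441 and 4167 CPM against 2971, 3103 and 2874 CPM (adjusted p = 0.185). Without PH library 3 the number of higher acute phase genes was 7, and with the mix as a covariate it was also 7.

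Cytoskeletal and calcium-binding genes were higher in 13 of 33 tested members (39.4%), with 11 to 16 when 1 library at a time was left out. The tubulin gene Tubb6 was at 72.7, 134 and 151 CPM after PH and at 8.53, 5.20 and 3.80 CPM after sham surgery (20.2-fold, log2 fold change 4.34, SE 0.38). Tubb2a, another beta-tubulin, was at 574, 733 and 626 CPM against 159, 91.8 and 95 CPM. S100a11, a calcium-binding protein, was at 89.8, 84.6 and 91.7 CPM against 14.4, 16.5 and 11.4 CPM (6.43-fold), and Anxa2, a membrane-binding annexin, was 3.57-fold higher. None of the 4 had overlapping groups.

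Of the fetal and progenitor genes, 13 of 24 were tested and 3 were higher (23.1%, against 6.39% of all genes). Ly6d, a surface protein that is scarce in the resting liver, was at 175, 119.8 and 145 CPM after PH and at 2.24, 3.47 and 3.32 CPM after sham surgery (48.7-fold, SE 0.29 on the log2 scale, adjusted p = 1.36e-11). Sox9, a transcription factor of bile ducts and of progenitor-like hepatocytes, was at 152, 193 and 142 CPM against 79.9, 53.7 and 47.5 CPM. Spp1, the matrix protein osteopontin, was at 25.1, 25.8 and 13.1 CPM against 3.14, 2.60 and 4.27 CPM (5.70-fold). Sox9 and Spp1 were also the 2 higher genes among the 3 tested cholangiocyte markers, whose sum was 158 to 224 CPM after PH and 58.4 to 89.3 CPM after sham surgery, while Krt7, Krt19 and Epcam were not in the table. Stellate cell markers summed to 304 to 378 CPM after PH and to 218 to 278 CPM after sham surgery, with 4 of 14 higher: Col1a1, Col1a2, Col3a1 and Lum. With the mix as a covariate only Lum of these kept its call. The part of bile duct or stellate cells in these results was not tested.

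Genes that the male liver expresses above the female liver were lower as a group. Of 36 members, 24 were lower (66.7%, against 4.35% of all genes), with a median log2 fold change of -1.31, and 21 to 26 were lower when 1 library at a time was left out. Of the 24, 13 were major urinary protein (Mup) genes, some of which are near-identical and could share reads, and 11 were other genes. Hsd3b5, a male-specific steroid dehydrogenase (chr3:98618634-98630252), was at 5.39, 37.6 and 9.12 CPM after PH and at 396, 186 and 389 CPM after sham surgery. This was the largest fall among the genes named by rank (19.3-fold, log2 fold change -4.27, SE 0.50, adjusted p = 2.22e-06), and it was larger without PH library 2 (log2 fold change -5.33). Mup1 was at 3521, 3661 and 2972 CPM against 8176, 6958 and 10830 CPM (2.56-fold lower). Keg1, a glycine acyltransferase-like gene, was at 44.0, 64.0 and 51.3 CPM against 219, 289 and 261 CPM (4.79-fold lower).

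Serpina12, the adipokine vaspin, was at 100.5, 123 and 82.4 CPM after PH and at 376, 284 and 319 CPM after sham surgery, and its call was lost with the mix as a covariate (adjusted p = 0.112). Selenbp2, a selenium-binding protein, was 3.15-fold lower and the glucuronyltransferase Ugt2b1 3.19-fold lower. The groups of Serpina12, Selenbp2 and Ugt2b1 did not overlap. Elovl3, a fatty acid elongase, was called lower but at 19.7, 14.7 and 36.7 CPM against 210, 12.1 and 31.8 CPM it overlapped between the groups, and without sham library 1 its log2 fold change was 0.13 (adjusted p = 0.917). Moxd1, a monooxygenase among the 12 lower genes of largest change, was at 0, 3.52 and 0.247 CPM against 4.49, 29.5 and 24.7 CPM, and its call was lost without PH library 3 (log2 fold change -3.09, adjusted p = 0.184) and without sham library 3.

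Growth hormone sets much of the sex bias of liver genes, through its receptor and Stat5b. Of 17 tested genes of the growth hormone and IGF axis, 4 were lower (23.5%). The receptor gene Ghr was at 210, 200.2 and 185 CPM after PH and at 381, 381 and 488 CPM after sham surgery (2.11-fold lower), just past the limit, and its call was lost without sham library 3. Igfals, which carries IGF-1 in serum, was at 23.3, 37.6 and 32.8 CPM against 71.8, 71.1 and 67.4 CPM, and Socs2, a Stat5 target that dampens the hormone's signal, at 31.4, 20.6 and 54.5 CPM against 105, 179 and 67.4 CPM. The log2 fold change of Socs2 was -1.60 over all libraries and -2.19 without PH library 3. With the mix as a covariate, Igfals and Socs2 were not called. Stat5b itself was at 19.7, 14.1 and 14.8 CPM against 23.8, 19.9 and 23.8 CPM (log2 fold change -0.54, adjusted p = 0.0516), under 2-fold, and Igf1 was at 545, 498 and 527 CPM against 656, 621 and 617 CPM (adjusted p = 0.17). Female-biased genes were called in 4 of 30 members, 3 higher (10%, against 6.39% of all genes) and 1 lower (3.33%, against 4.35%). None of these calls stood without PH library 3.

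Lipogenic genes were lower in 11 of 27 tested members (40.7%), a count between 10 and 11 without any 1 library. Thrsp, the Spot 14 protein that responds to thyroid hormone and carbohydrate, was at 14.4, 8.22 and 5.42 CPM after PH and at 94.2, 149 and 200.4 CPM after sham surgery (18.4-fold lower, log2 fold change -4.20, SE 0.44, adjusted p = 5.29e-07). Scd1, the desaturase that makes oleate, was at 635, 458 and 466 CPM against 1346, 2041 and 2091 CPM. Fasn, the fatty acid synthase, was at 45.8, 35.8 and 37.5 CPM against 113.5, 100.5 and 151 CPM, and Acss2, which makes acetyl-CoA from acetate, was 3.23-fold lower. The groups of all 4 genes lay apart.

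The phosphatidate phosphatases of triglyceride synthesis were lower as well. Lpin1 was at 23.3, 23.5 and 10.1 CPM after PH and at 98.7, 153 and 186 CPM after sham surgery (8.48-fold lower), and Lpin2 was 3.09-fold lower. Lpin1 was counted in the list of cholesterol synthesis and uptake. Mlxipl, the carbohydrate-responsive factor ChREBP, was at 45.8, 36.4 and 39.5 CPM against 101.4, 101.4 and 92.1 CPM. Srebf1, the other lipogenic factor, was at 8.98, 24.7 and 9.37 CPM against 30.1, 26 and 37.0 CPM, and its call was lost without PH library 3.

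For cholesterol synthesis and uptake 6 of 28 members were lower (21.4%), with 3 without sham library 3 and up to 11 without other libraries. Lpin1 is 1 of these 6. Insig1, which holds SREBP in the endoplasmic reticulum and is itself a target of SREBP, was at 26.9, 20 and 17.8 CPM after PH and at 60.6, 66.7 and 83.6 CPM after sham surgery (3.42-fold lower, adjusted p = 3.75e-06). Fdps, which makes farnesyl diphosphate, was at 16.2, 8.81 and 11.8 CPM against 33.7, 43.3 and 21.4 CPM (2.67-fold lower, adjusted p = 0.00478), and the groups of neither gene overlapped.

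Bile acid genes were lower in 9 of 29 tested members (31%), with 8 or 9 without any 1 library. Cyp8b1, the 12-alpha hydroxylase that sets the share of cholic acid, was at 369, 390.4 and 311 CPM after PH and at 760.1, 1099 and 1669 CPM after sham surgery. Cyp7a1, the rate-limiting enzyme of bile acid synthesis, was at 35.0, 41.7 and 71.3 CPM against 74.0, 231 and 144 CPM (log2 fold change -1.50), and without sham library 2 it was not called (log2 fold change -1.07). Abcg5 and Abcg8, which pair up as the sterol exporter, were 2.64-fold and 4.27-fold lower. The gene models of Abcg5 and Abcg8 overlap on opposite strands. Slc10a1, the uptake carrier of bile acids, was at 263, 223 and 236 CPM against 360.3, 381 and 460 CPM, which was under 2-fold.

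Of 39 tested genes of fatty acid oxidation and ketogenesis, 6 were higher (15.4%, against 6.39% of all genes). Another 2 were lower (5.13%, near the 4.35% of all genes). With the mix as a covariate 2 were higher. Acot2, an acyl-CoA thioesterase, was at 8.08, 5.87 and 6.90 CPM after PH and at 1.80, 1.73 and 0.950 CPM after sham surgery, and its cytosolic relative Acot1 was 2.89-fold higher. Cyp4a14, a fatty acid omega-hydroxylase, was at 233, 204 and 139 CPM against 42.2, 32.9 and 76.9 CPM. The calls of Acot1 and Cyp4a14 were lost with the mix as a covariate. Ppara, the nuclear receptor that drives these 3 genes, was lower at 36.8, 28.2 and 28.1 CPM against 62.8, 68.5 and 63.6 CPM, and the peroxisomal thiolase Acaa1b was 3.97-fold lower. Cpt1a, the gate of mitochondrial oxidation, was at 323, 316 and 321 CPM against 308, 414 and 326 CPM, with overlapping groups.

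Of the lipid droplet and lipoprotein genes, Apoa4, an apolipoprotein of triglyceride-rich particles, was at 867, 489 and 769.8 CPM after PH and at 191, 209.7 and 153 CPM after sham surgery (3.85-fold higher). Plin2, the coat protein of lipid droplets, was at 819, 782 and 838 CPM against 559, 510.3 and 542 CPM (adjusted p = 0.125). In all, 2 of 30 tested members of that list were higher and 2 lower (6.67% each), near the shares over all genes (6.39% and 4.35%).

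Gluconeogenesis and glycogen genes were lower in 7 of 22 members (31.8%) and higher in 1. Gys2, the glycogen synthase of the liver, was at 24.2, 25.8 and 16.5 CPM after PH and at 44.4, 58.9 and 67.9 CPM after sham surgery. Slc2a2, the glucose carrier Glut2, was 2.67-fold lower and Ppp1r3b, which targets a phosphatase to glycogen, 3.04-fold lower. Pck2, the mitochondrial PEPCK, was the higher gene, while Pck1, its cytosolic form, was at 817, 743 and 657 CPM against 1027, 1143 and 1117 CPM (log2 fold change -0.57, adjusted p = 0.0652) and G6pc was at 92.4, 82.8 and 82.1 CPM against 138, 106 and 117 CPM (adjusted p = 0.394). The groups of Pck1 and of G6pc did not overlap.

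Urea cycle and amino acid breakdown genes were lower in 14 of 46 members (30.4%), and the count ran from 10 to 15 when 1 library at a time was left out. Otc, the urea cycle enzyme that makes citrulline, was at 693, 749.8 and 638 CPM after PH and at 1447, 1650 and 1990 CPM after sham surgery, and Ass1, the next enzyme of the cycle, was 2.17-fold lower. Ftcd, of histidine breakdown, was at 228, 240.1 and 233 CPM against 566, 490.4 and 612 CPM (log2 fold change -1.25, SE 0.13, adjusted p = 7.06e-07). Cps1, the entry enzyme of the urea cycle, was at 750.3, 586 and 701 CPM against 761, 729.5 and 947 CPM, and its groups overlapped.

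Genes of xenobiotic metabolism were lower in 19 of 92 tested members (20.7%) and higher in 2. Ces3b, a carboxylesterase, was at 259, 297 and 223 CPM after PH and at 919.8, 1116 and 1243 CPM after sham surgery (4.22-fold lower, adjusted p = 2.22e-06). Cyp2e1, the ethanol-inducible cytochrome P450 of the pericentral zone, was at 527, 483 and 521 CPM against 988, 1255 and 1119 CPM. Cyp1a2, another pericentral enzyme, was at 675, 845 and 812 CPM against 1118, 1130 and 1700 CPM (adjusted p = 0.131). Gstm2, a glutathione transferase, was higher, at 540.3, 386 and 543 CPM against 202, 176 and 217 CPM. By zone of the lobule, 3 of 21 tested pericentral genes (14.3%) and 8 of 22 periportal genes (36.4%) were lower, against 4.35% of all genes. In each zone 1 was higher. With the mix as a covariate 2 and 4 were lower, and the difference between the zones was not tested.

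**Figure D4:**
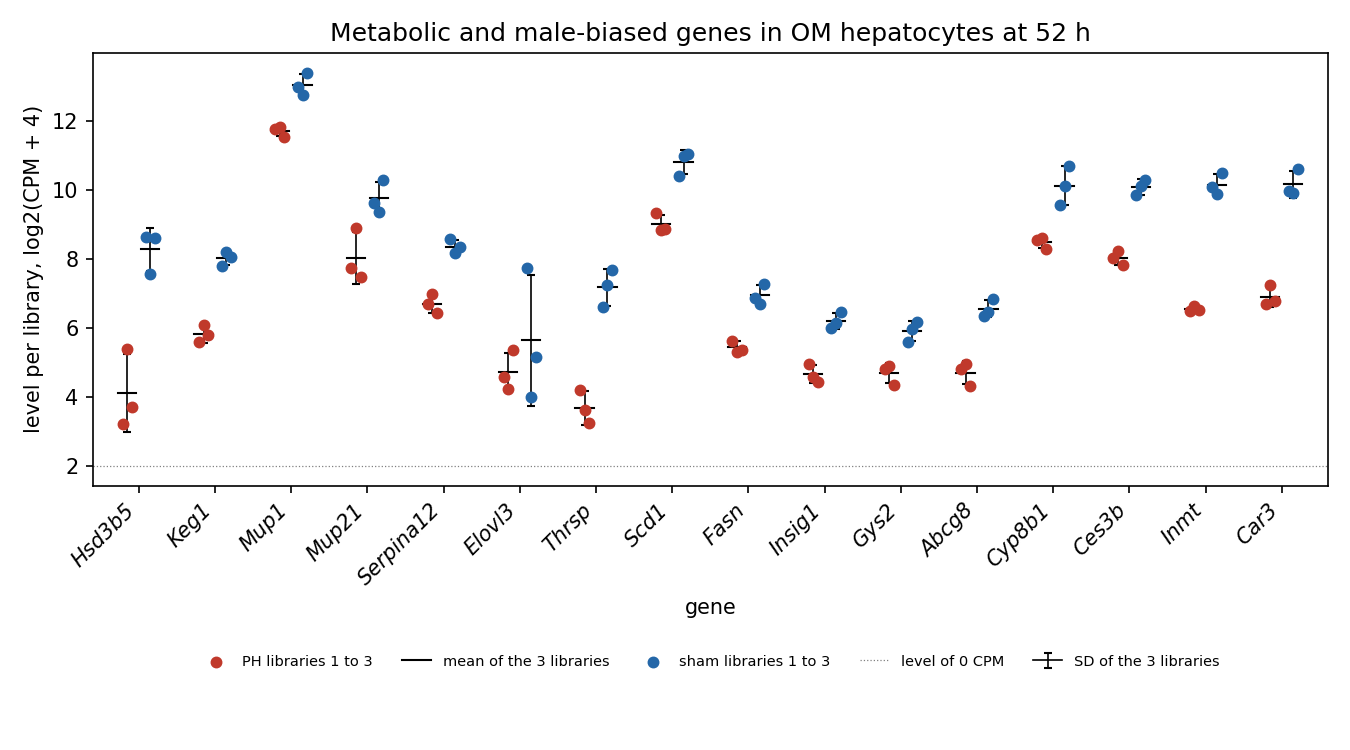
Level of each gene as log2(CPM + 4) (vertical axis) in the 3 PH libraries (red) and the 3 sham libraries (blue) of OM at 52 h, with the mean and SD of each group in black. PH points lie below all sham points for each gene shown but Elovl3, whose sham library 1 stands above its other sham libraries.

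Other lower genes among those with the largest changes came from several pathways. Inmt, a methyltransferase of indoles and thioethers, was at 85.3, 96.3 and 87.3 CPM after PH and at 1082, 943 and 1432 CPM after sham surgery (12.9-fold lower, log2 fold change -3.68, SE 0.33, adjusted p = 6.22e-08). Car3, the carbonic anhydrase of liver and muscle, was at 98.7, 149 and 107 CPM against 1000, 959 and 1548 CPM (9.87-fold lower). Upp2, a uridine phosphorylase, was at 30.5, 25.8 and 14.6 CPM against 144, 275 and 286 CPM. For these 3 abundant genes the highest PH library was well below the lowest sham library.

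Lower counts lay behind the others. Clec2h, a lectin-like receptor gene, was 14.0-fold lower on 16 counts against 190, with log2 fold changes of -3.81 over all libraries, -3.13 without PH library 3 and -4.40 without PH library 2. Syt3, a synaptotagmin, had 8 counts against 88, with log2 fold changes of -3.65 over all libraries, -2.46 without PH library 3 and -4.36 without PH library 1. Hnf4aos, an RNA that lies antisense to Hnf4a, had 10 counts against 86. The strand setting of the counting is not given in the sources used here; Hnf4a, the master regulator of hepatocyte identity, was at 354, 338 and 308 CPM after PH and at 387, 423 and 371 CPM after sham surgery (adjusted p = 0.141).

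Clock genes were called in 9 of 21 members, 8 lower (38.1%) and 1 higher, and 7 to 10 were lower when 1 library at a time was left out. Arntl, the Bmal1 activator of the clock, was at 30.5, 30.5 and 27.9 CPM after PH and at 7.18, 0 and 3.80 CPM after sham surgery (log2 fold change 2.76, and 3.58 without sham library 1). Its targets lay the other way. Dbp, an output factor of the clock, was at 3.59, 7.63 and 2.71 CPM against 10.3, 30.3 and 44.2 CPM (6.55-fold lower; log2 fold changes -2.71 and, without sham library 3, -2.11), and the repressor Ciart at 3.59, 2.94 and 1.73 CPM against 10.3, 23.4 and 27.5 CPM (8.21-fold lower). Bhlhe41, the repressor Dec2, was among the 12 lower genes of largest change, at 0, 1.76 and 1.73 CPM against 9.42, 15.6 and 13.3 CPM. Nr1d1, the repressor Rev-erb alpha, was at 135, 167 and 140.0 CPM against 188, 208 and 297 CPM (adjusted p = 0.122), and the groups did not overlap.

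Among interferon response genes 2 of 33 tested members were lower (6.06%, near the 4.35% of all genes), Rsad2 and Ifit1, which act against viruses. Ifit1 was at 11.7, 8.81 and 8.38 CPM after PH and at 26, 21.7 and 31.3 CPM after sham surgery. The markers of lymphocytes, of which 4 of 20 were tested, summed to 21.7 to 46.4 CPM after PH and to 72.8 to 83.5 CPM after sham surgery, with Cd74 and Igkc called lower. The call of Igkc was lost without PH library 2 or sham library 1. Their part in the interferon genes was not tested. Genes of the unfolded protein and integrated stress response were near the share of all genes, with 2 of 26 tested members higher (7.69%, against 6.39%), 1 lower and a median log2 fold change of -0.05. The higher genes Psat1, of serine synthesis, and Mthfd2, of mitochondrial folate metabolism, were 8.48-fold and 4.04-fold higher. Psat1 was at 28.7, 24.7 and 20.7 CPM against 1.35, 3.47 and 3.80 CPM.

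Several housekeeping and identity lists had calls near or under the share of all genes, which does not exclude changes under 2-fold. None of 75 oxidative phosphorylation genes was called by edgeR, and DESeq2 called 0. At an unadjusted p under 0.05 in edgeR, 17 were lower and 3 higher, against 3698 of all 11047 genes in either direction. Of 79 tested ribosomal protein genes 1 was higher (Rps12, 1.27%), and its call was lost without PH library 1. Ribosome biogenesis genes were higher in 2 of 56 (3.57%), Nop58 and Gnl2, of which Gnl2 lost its call without PH library 3. Secreted plasma proteins were lower in 2 of 42 tested members (4.76%), Serpinf1 and F7, and both calls were lost without PH library 3. At an unadjusted p under 0.05 in edgeR, 29 of the 79 ribosomal protein genes were higher and 1 lower. By the same measure 17 of the 56 ribosome biogenesis genes were higher and 1 lower. Of the 42 plasma protein genes 18 were lower and 0 higher. The median log2 fold changes of these lists were 0.27, 0.25 and -0.37. Alb, serum albumin, was at 4635, 4514 and 3563 CPM after PH and at 5563, 5737 and 6568 CPM after sham surgery (log2 fold change -0.49, adjusted p = 0.104) and its deposited counts, which exceed the number of different UMIs in all 6 libraries, rest on the correction for repeated UMIs. Deposited counts of other abundant genes, among them Saa1 and Lcn2, also exceeded that number in the PH libraries. Of 23 tested hepatocyte transcription factors only Esrra was called, and it lost its call without each of 5 libraries. At an unadjusted p under 0.05 in edgeR, 8 of the 23 were lower and 1 higher.

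The response of OM was then set against that of the other cohorts in the same fit, by testing the difference of the log2 fold changes itself. In YM, 670 genes were higher (6.06%) and 432 lower (3.91%), 9.98% in all. The response differed from that in OM for 46 genes (0.416%), with a higher value in OM for 28 (0.253%) and a lower value for 18 (0.163%). In S phase genes the median log2 fold change was 1.79 in OM and 1.80 in YM, and in G2 and mitosis genes 4.89 and 4.66. No member of either list was called different by edgeR or by DESeq2. At an unadjusted p under 0.05 in edgeR, 4 of 44 and 1 of 63 passed, against 1243 of all 11047 genes. Acute phase genes had medians of 0.59 in OM and 0.06 in YM, and male-biased genes of -1.31 and -0.68. Between OM and YM, 2 of 38 acute phase genes were called different (3 by DESeq2, with 10 at an unadjusted p under 0.05 in edgeR). None of the 36 male-biased genes was called by edgeR or by DESeq2. Of them, 5 had an unadjusted p under 0.05 in edgeR, against the 1243 of 11047 over all genes.

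The 4 genes in each direction with the largest differences from YM follow. Adcy1, an adenylate cyclase that makes cAMP, was at 20.6, 15.3 and 24.2 CPM after PH and at 1.35, 0 and 0 CPM after sham surgery in OM, while its log2 fold change was -0.33 in YM (difference 5.40, SE 1.09, adjusted p = 0.0428). Its 147 counts after PH stood against 3 after sham surgery, a ratio of 39.1 with a 95% counting interval of 13.1 to 192, and those 3 lay in sham library 1, without which its log2 fold change in OM went from 5.07 to 8.22. Spp1 rose by 2.51 on the log2 scale in OM and had a log2 fold change of -2.47 in YM. The chemokine gene Cxcl14 was at 40.4, 60.5 and 47.6 CPM after PH and at 6.73, 9.53 and 4.75 CPM after sham surgery, with log2 fold changes of 2.90 in OM and 0.13 in YM. Mt2 had log2 fold changes of 2.44 in OM and -0.25 in YM.

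In the other direction, Ckap5, which lengthens spindle microtubules, had log2 fold changes of 1.42 in OM and 4.61 in YM, and Ccdc34 of 2.87 and 5.11. Inmt had log2 fold changes of -3.68 in OM and -1.22 in YM, and Srebf1 of -1.19 and 1.02. The calls of Ckap5 and Srebf1 in OM were lost without PH library 3. These differences rested on few libraries: the count of 46 fell to 15 without PH library 1, to 7 without sham library 1 and to 8 without sham library 3. With the mix as a covariate edgeR called 0 genes. Of 11047 genes, 496 then had an unadjusted p under 0.05, a share below the 0.05 reached when no gene differs. DESeq2 without the covariate called 32.

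**Figure D5:**
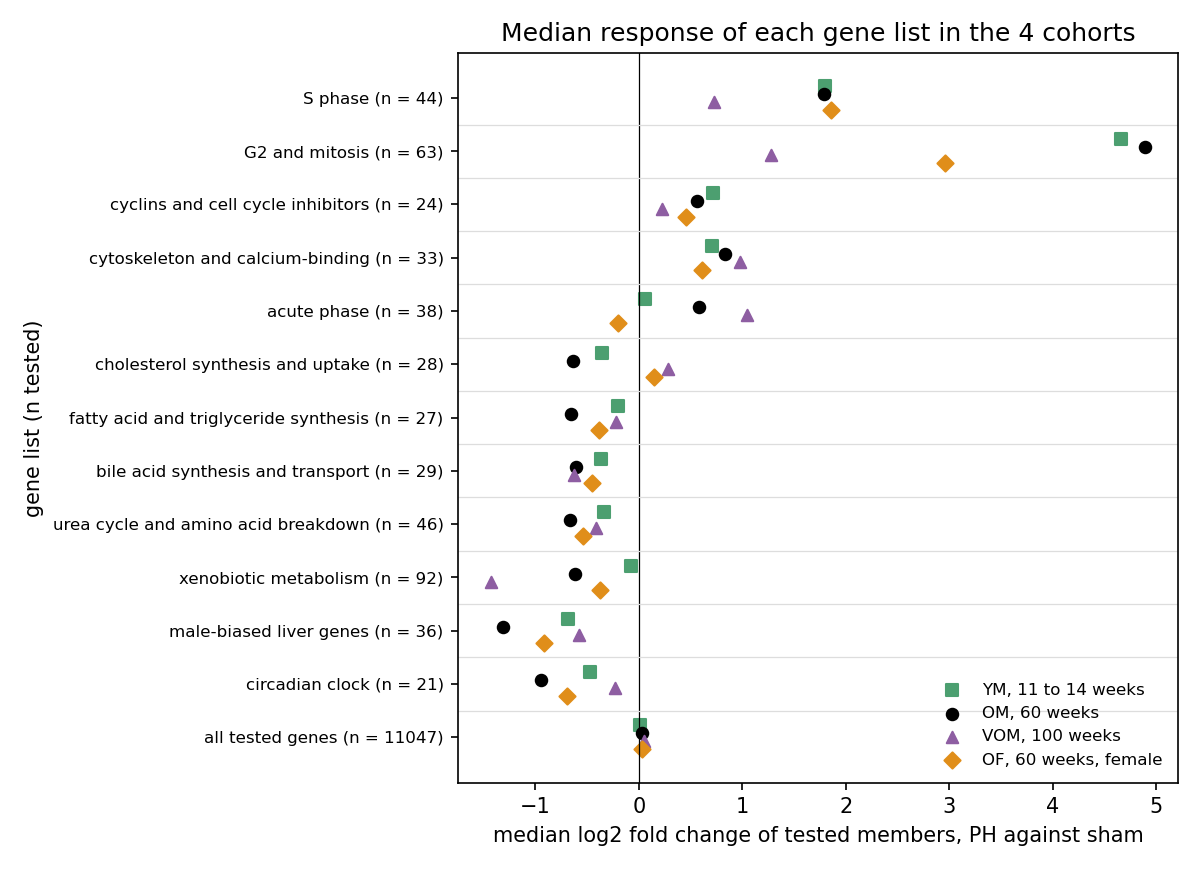
Median log2 fold change of PH against sham surgery at 52 h (horizontal axis) over the tested members of 12 gene lists and over all tested genes, in YM (squares), OM (circles), VOM (triangles) and old females (OF, diamonds). For G2 and mitosis the medians are 4.66, 4.89, 1.28 and 2.96; each cohort was compared with its own 3 sham libraries, and those of VOM stood apart.

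In old females (OF, 60 weeks), 590 genes were higher (5.34%) and 390 lower (3.53%), 8.87% in all. The response differed from that in OM for 196 genes (1.77%), with a higher value in OM for 100 (0.905%) and a lower value for 96 (0.869%). G2 and mitosis genes rose in 38 of 63 members in OF, with a median of 2.96, and 4 of 63 differed from OM, all with a higher value in OM. DESeq2 called 5 of the 63 different. At an unadjusted p under 0.05 in edgeR, 19 of them passed, against 1627 of all 11047 genes. Acute phase genes had medians of 0.59 in OM and -0.20 in OF, and 7 of 38 were called different (9 by DESeq2). Of these 38 genes, 20 had an unadjusted p under 0.05 in edgeR. Ccnb2, a cyclin B, was at 74.5, 130.3 and 138 CPM after PH and at 4.94, 3.47 and 3.32 CPM after sham surgery in OM, with log2 fold changes of 4.85 in OM and 0.85 in OF. Bmper, which modulates BMP signals, had log2 fold changes of 5.11 in OM and 1.33 in OF; its 105 counts after PH stood against 2 after sham surgery, both in sham library 1, a ratio of 41.9 with a 95% counting interval of 11.3 to 351. Adcy1 (1.26 in OF) and Spp1 (-1.14 in OF) were also among the 4 genes with the largest higher values.

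Lower in OM than in OF were the responses of Slco1a1, a male-biased organic anion carrier (log2 fold change -1.21 in OM, not called with the mix as a covariate, and 1.56 in OF), of the carboxylesterase Ces2c (-0.67 and 2.51) with its neighbour Ces2d-ps (-0.73 and 2.12), and of the histone chaperone Supt16 (-0.37 and 2.30). Ces2c and Ces2d-ps resemble each other and could share reads. Of the cholesterol list, 6 of 28 members differed, among them Insig1 (-1.78 and -0.54) and Mvd (-1.25 and 0.25). The count of 196 was between 100 and 128 without PH library 2, PH library 3, sham library 2 or sham library 3, and it was 1 with the mix as a covariate.

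In VOM, 823 genes were higher (7.45%) and 924 lower (8.36%), 15.8% in all. The response differed from that in OM for 1151 genes (10.4%), with a higher value in OM for 714 (6.46%) and a lower value for 437 (3.96%), and with the mix as a covariate the number was 464. S phase genes were higher in 12 of 44 members in VOM and G2 and mitosis genes in 22 of 63, with 20 and 33 members differing from OM. Sgo2a, which protects cohesin at centromeres, was at 35.0, 41.7 and 42.7 CPM after PH and at 2.24, 2.60 and 1.43 CPM after sham surgery in OM. Pde4a, a phosphodiesterase, and Rdm1, a repair protein, were not called in OM (log2 fold changes -0.24 and -0.10), and the cytochrome P450 Cyp2a5 was lower (-2.67); in the VOM sham libraries the level of these 4 genes ran from 54840 CPM (Rdm1) to 286600 CPM (Cyp2a5). Mthfd2 (2.01 in OM and 7.07 in VOM), Ciart (-3.04 and 1.53), Gpcpd1 (-1.46 and 2.28) and Lpin1 (-3.08 and 0.58) had the largest lower values in OM. The VOM sham libraries, all of mix 9, are those that stood apart, this comparison cannot be made without them, and age and the state of those libraries cannot be told apart.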

How the data were processed

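Hepatocyte RNA was measured by CEL-seq2, which tags transcripts near the 3' end and counts unique molecular identifiers (UMIs). The deposited values are estimated counts of transcripts: the authors mapped reads to GRCm38, counted UMIs with celseq2, corrected for the 4096 possible UMIs, left out saturated and low genes, and adjusted for batch with ComBat-Seq, whose batch variable is not given in the sources used here. Residual batch, and spread removed by that step, therefore enter every value. GEO's processing notes name a human build, while the gene identifiers are those of mouse. The table held 11049 genes and 133 libraries. Values not whole (30966 in 448 genes) were rounded.

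Groups came from the labels, and libraries marked X were left out. The 11047 genes that reached 0.5 CPM in 1 or more libraries were tested in edgeR 4.0.16 (R 4.3.3) with TMM factors and the quasi-likelihood test, in 1 fit of 24 libraries (PH and sham at 52 h in YM, OM, VOM and OF, 3 each). The difference between cohorts was an interaction contrast. CPM values use the TMM factors. Calls needed a Benjamini-Hochberg adjusted p under 0.1 and a 2-fold change. The SE printed with a log2 fold change is its absolute value divided by the square root of the F statistic of the test. It was thus derived from the test and is approximate, most of all for genes near 0 in a group. On simulated counts for PH against sham surgery in OM with 200 changed genes among 11047, edgeR called 95.5% of them and 18 unchanged genes. Calls there used the adjusted p alone, with no fold minimum. The changed genes were drawn from those above a count floor, with changes of at least 2-fold, so low genes were not covered. Alternatives were DESeq2 1.42.0, other filters and factors, the mix as a covariate, a replicate block, and leaving out each library. Libraries differed in depth, which limits low genes most, and the 95% counting intervals cover counting error only. No duplicated library was found.

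Genes were named by rule: the 12 largest changes in each direction among called genes with separate groups and a mean of at least 10 counts, the leading members of each list with others needed to describe it, and the 4 largest differences between cohorts in each direction. The members and lists were chosen with earlier results of these data known. Symbols were found for 11020 genes. Promoter sequences and coordinates are from RefSeq and GENCODE annotation of GRCm38. A few genes that the rule would name are not reported here.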

Additional observations from a re-analysis of the deposited data

Results flagged for a closer look

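In each case below the difference between cohorts was tested itself, as the log2 fold change of PH against sham surgery in OM minus that in the other cohort, by the edgeR quasi-likelihood test. Against YM, 46 genes passed, against OF 196 and against VOM 1151. The differences from YM were largest in the higher direction for Adcy1 (5.40), Spp1 (4.98), Cxcl14 (2.77) and Mt2 (2.69). In the lower direction they were largest for Ckap5 (-3.19), Inmt (-2.47), Ccdc34 (-2.24) and Srebf1 (-2.21). None of these 8 calls stood with the mix as a covariate. Against VOM, the count rests on the 3 VOM sham libraries that stood apart, and its source was not tested.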

How the results depend on the processing

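The response of OM kept both its counts within 1.5 times of 706 higher and 481 lower genes under every alternative but an adjusted p under 0.05 with no fold minimum (1298 and 1140 genes). Leaving out 1 OM library at a time gave 620 to 698 higher and 415 to 497 lower genes. The differences between cohorts moved more. For OM against YM, the mix as a covariate gave 0 genes in edgeR (496 of 11047 at an unadjusted p under 0.05, a share below 0.05). The stricter p with no fold minimum gave 17, and leaving out 1 OM library 7 to 35. For OM against OF, DESeq2 gave 125, the mix as a covariate 1, the stricter p with no fold minimum 70, and leaving out 1 OM library 100 to 133. For OM against VOM, the mix as a covariate gave 464. The causes were not tested. Elovl3 changed sign with the mix as a covariate (log2 fold change 0.23), with mixes 17 and 23 alone (0.29) and without sham library 1 (leaving out 1 library gave -2.41 to 0.13).

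Replicate numbers gave no sign of pairing: deviations of same-numbered PH and sham libraries correlated at -0.17, -0.10 and -0.02. Those with different numbers correlated at -0.09 to 0.20. With 3 libraries a group, in counts already adjusted for batch, this cannot exclude pairing. With a replicate block, 672 genes were higher and 444 lower in OM, 1 differed from YM and 81 from OF. Without the 6 VOM libraries, an alternative chosen after seeing the data, 705 genes were higher and 491 lower in OM, and 53 differed from YM and 187 from OF. Of the named genes' log2 fold changes over all alternatives, 4499 kept their direction and call, 261 lost the call, 29 gained it and 3 changed sign. Reads of Mup, Saa, Ces, Cyp4a and histone genes may be shared between near-identical copies. The lowest depths of PH library 1 and sham library 2 limit calls of low genes.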
